A study of Mus musculus with 6 samples.

Results

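The genes described here are 40 splicing factors and RNA-binding regulators of the mouse, of which 32 were matched to 42 probes among the 41006 of the array and to 32 of the 37048 genes tested. The set was built around Luc7l, taken because its value was higher in one of the knockout groups compared here, and the other members were added by function to ask whether they share that higher value. Clk1, Clk2, Rbm25, Rbm39, Sf1, Srsf1, Srsf11 and Tra2a were not analysed here. Luc7l is therefore described with no test, and the test results concern the other 31 members.

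RNA of mesenteric lymph nodes was measured on 6 Agilent arrays of 60-base probes, each holding a node sample (Cy3) and a reference RNA pooled from 11 cultured mouse cell lines (Cy5). Each sample was RNA from nodes pooled from 3 adult mice. The group called B_TNF_KO here has the strain label B-TNF KO, a knockout of the cytokine gene Tnf in B cells, and its 3 pools are labelled male. The group called TB_TNF_KO has the strain label TB-TNF KO double, in T and B cells, and its pools 1 to 3 are labelled male, female and male. By the strain labels both groups thus lack TNF in B cells and differ in the T cell knockout. They also differ in labelled sex and in the day of feature extraction. Effects of the T cell knockout cannot be told apart from these. The mice are naive by the titles, and no wild-type sample was analysed here. The Cre driver and the genetic background are not given in the sources used here. In whole nodes, fewer cells of a type and less RNA per cell cannot be told apart.

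Splicing removes introns from precursor mRNA. The U1 small nuclear ribonucleoprotein (snRNP) marks the start of an intron, the U2AF proteins and the U2 snRNP mark its end, and the rest of the spliceosome assembles there. SR proteins, rich in arginine and serine dipeptides, mostly promote the use of the exons they bind, heterogeneous nuclear ribonucleoproteins (hnRNPs) often oppose them, and CLK kinases phosphorylate SR proteins. In lymphocytes such factors set alternative splicing of surface receptors, such as the Ptprc (CD45) exons, and the stability of cytokine mRNAs.

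The probe sequences below are those on which the results turn, as deposited with the array. They are in the sense direction, 5′ to 3′. Capitals mark arginine and serine codons in the frame without a stop codon, and where several frames had none, in the frame with most such codons. The Luc7l probes come first because their differences are unequal. They are annotated to different RefSeq transcript records of the gene, and how these transcripts differ was not analysed here. The probe called the brighter here has 43.3% GC and 4 arginine or serine codons of 19, and the dimmer has 65% GC and 15 of 19.
Luc7l, brighter probe: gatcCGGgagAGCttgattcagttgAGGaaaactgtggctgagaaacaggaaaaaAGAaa
Luc7l, dimmer probe: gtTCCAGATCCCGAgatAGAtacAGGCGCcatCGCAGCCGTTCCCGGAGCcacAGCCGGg
The Hnrnpd probes are shown because both lay lower in every TB_TNF_KO array.
Hnrnpd, brighter probe: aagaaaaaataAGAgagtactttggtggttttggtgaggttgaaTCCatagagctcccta
Hnrnpd, dimmer probe: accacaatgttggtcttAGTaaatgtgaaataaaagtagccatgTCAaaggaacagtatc
The Srsf5 probe gave the lowest difference among the probes that represent the members, and the Srsf3 probe shown went against the other probes of its gene, with 11 arginine or serine codons of 19.
Srsf5: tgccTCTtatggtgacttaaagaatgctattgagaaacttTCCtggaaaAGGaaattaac
Srsf3, arginine and serine rich probe: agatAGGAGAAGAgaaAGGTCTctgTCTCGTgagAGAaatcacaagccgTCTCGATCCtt
Where each probe lies in its transcript was not analysed here.

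Every member probe was well above background on all 6 arrays, and none was saturated or marked as an outlier. After background subtraction, array medians of the sample signal ran from 159 to 203 on the B_TNF_KO arrays and from 144 to 166 on the others. Those of the reference signal ran from 280 to 283 and from 315 to 362. TB_TNF_KO arrays 1 and 2 differed in the sample channel by 1.10 times their spread in the reference channel, against 1.23 to 1.79 in the 14 other pairs of arrays, so their mean counted as 1 sample. On both of them the Y-linked gene Eif2s3y was below the reference, at -2.81 and -2.84, although array 1 is labelled male. The B cell markers matched (10 of 11) had medians of 2.35, 2.47 and 2.53 in B_TNF_KO and 1.99, 1.95 and 2.34 in TB_TNF_KO, lower in the latter group, whereas the T cell markers (12 of 14) lay between 2.04 and 2.34 and overlapped. Exocrine pancreas markers (16 of 25) had medians of 3.13 and 4.31 in B_TNF_KO arrays 1 and 2, 4.57 and 4.59 in TB_TNF_KO arrays 1 and 2, and 0.03 and 0.0039 in the 2 arrays of number 3. All of these are log2 ratios of sample over reference, the scale of every value below unless another is named.

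Luc7l encodes a LUC7-like protein, a relative of the yeast U1 snRNP protein Luc7, which takes part in the choice of the upstream splice site. Its brighter probe read -0.53, -0.35 and -0.61 in B_TNF_KO and 0.39, 0.34 and 0.17 in TB_TNF_KO. Every TB_TNF_KO array was above every B_TNF_KO array, and the groups lay on opposite sides of the reference. The means were -0.49 ± 0.13 (SD, n = 3) and 0.27 ± 0.14 (SD, n = 2), a difference of 0.76 or 1.69-fold.

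The dimmer Luc7l probe read -0.13, 0.05 and -0.01 in B_TNF_KO and 0.27, 0.25 and 0.22 in TB_TNF_KO, a difference of 0.27. These groups did not overlap either, but the difference was smaller than that of the brighter probe by 0.49. In the sample channel alone the probes differed by 0.71 and 0.21, and in the reference channel by -0.06 each. Between the 2 arrays of number 3, in which the pancreas markers were low, the brighter probe differed by 0.77. This sets 1 array against 1, and the part of the pancreas markers in the Luc7l difference was not tested.

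In the other LUC7-like genes the groups overlapped. Luc7l2, which acts on the same splice site, read 0.57, 0.32 and 0.35 in B_TNF_KO and 0.06, 0.07 and 0.42 in TB_TNF_KO. The groups overlapped through TB_TNF_KO array 3, the second highest of the 6, and the difference of -0.17 (SE 0.12, 95% interval -0.47 to 0.14) did not pass the test (adjusted p = 0.58). Luc7l3, which carries an SR-like tail, read 0.18, 0.24 and 0.58 in B_TNF_KO and 0.09, 0.10 and 0.22 in TB_TNF_KO. The difference, again between overlapping groups, was -0.17 (SE 0.12, 95% interval -0.48 to 0.13, adjusted p = 0.57).

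**Figure D1:**
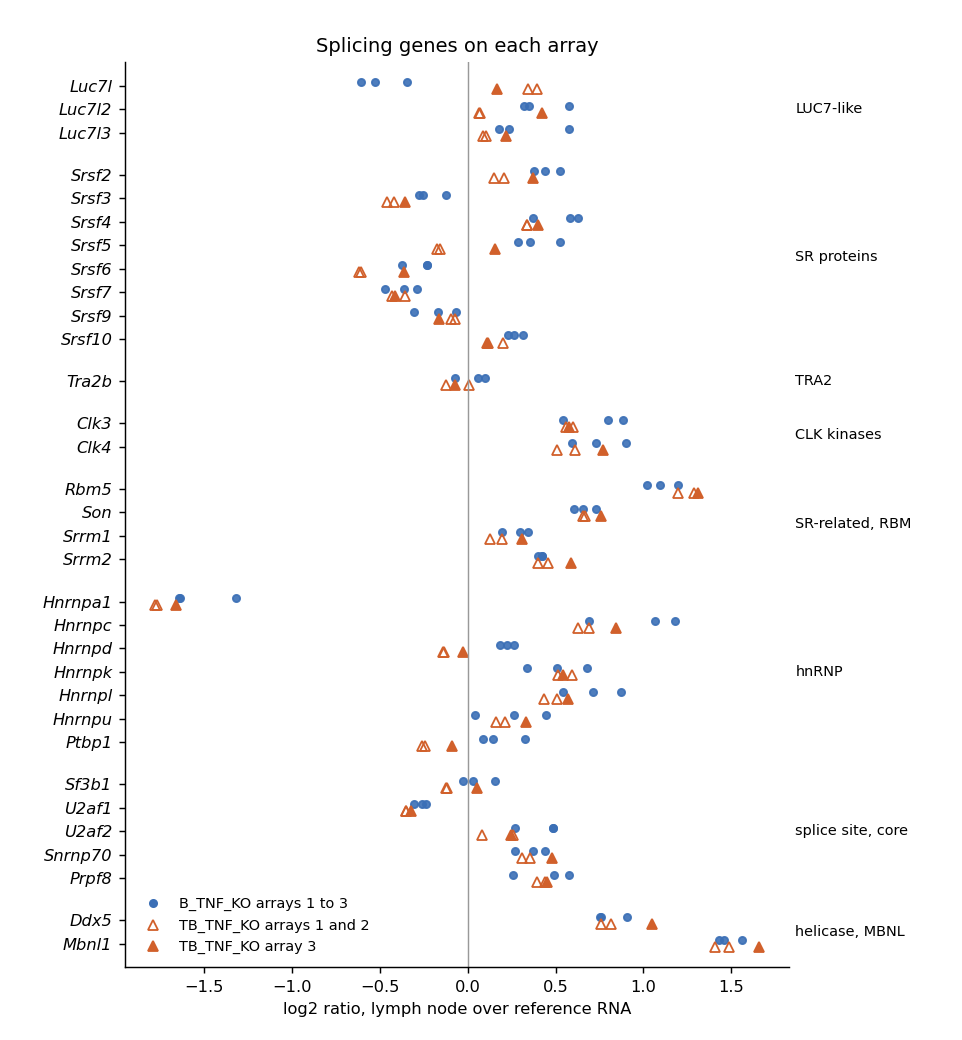
Log2 ratio of lymph node over reference RNA (x axis) for the probe representing each of the 32 members, in rows grouped by role. Circles are the 3 B_TNF_KO arrays and triangles the 3 TB_TNF_KO arrays, with arrays 1 and 2 open. The Luc7l circles lie between -0.61 and -0.35 and the triangles between 0.17 and 0.39, and in most other rows the triangles overlap the circles or lie to their left.

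The plot of values by array shows the other members beside Luc7l, most of them lower in TB_TNF_KO or overlapping between the groups. Of the 31 other members, none passed an adjusted p of 0.05 over all genes in limma in either direction. Of all genes tested, 0% passed as higher and 0.0108% as lower. At an unadjusted p under 0.05 the members numbered 1 higher, against 5.03% of all genes, and 6 lower, against 11.3% of all genes. All TB_TNF_KO arrays lay below all B_TNF_KO arrays in 9 of the 31, against 17.2% of all genes, and above them in 0, against 10.7%.

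Counted by sign, 22 of the 31 were lower in TB_TNF_KO and 9 higher, and with median centring of each array in place of loess 29 were lower. The first count is 71% lower, against 55% of all genes and 60.7% of the genes with a symbol. The median difference of the 31 was -0.09, beside -0.01 over all genes and -0.03 over the genes with a symbol. With median centring it was -0.17, beside -0.01 over all genes. The share of all genes that were lower with median centring is not given here. Taken by array, the 31 had medians of 0.27, 0.36 and 0.44 in B_TNF_KO against 0.21, 0.15 and 0.33 in TB_TNF_KO, so the groups overlapped through array 3 of TB_TNF_KO. Between the 2 arrays of number 3 alone, the median difference was -0.12, against -0.01 over all genes. Of the 31, 23 were lower there, and the share of all genes lower between these 2 arrays is not given here. The part of the B cell markers, which also lay lower in TB_TNF_KO, was not tested.

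**Figure D2:**
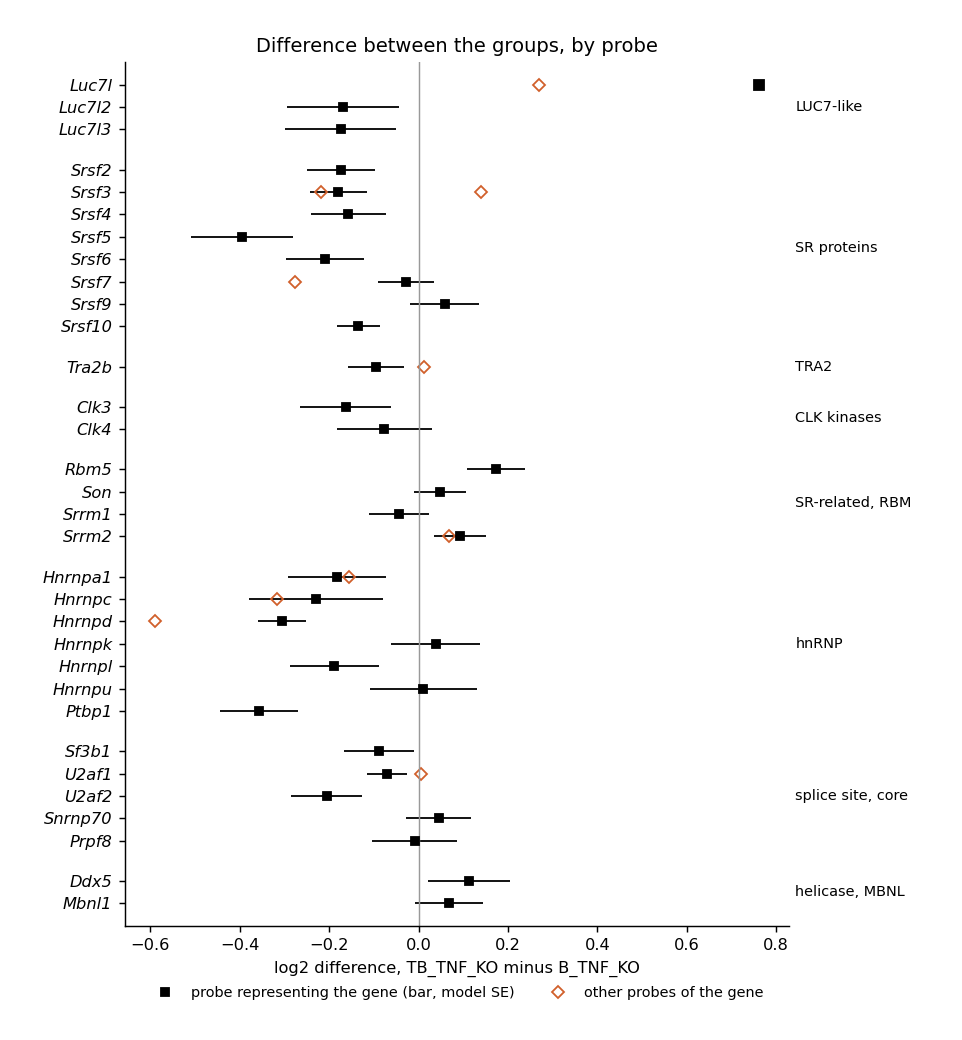
Difference of TB_TNF_KO minus B_TNF_KO in log2 ratio (x axis) for every probe of the 32 members, in rows grouped by role. Squares are the probe representing the gene, with a bar of 1 model SE on each side except for Luc7l, and open diamonds are the other probes of that gene. Luc7l lies at 0.76 and 0.27, and the other squares lie between -0.39 and 0.17.

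Among the classical SR proteins, 7 of 8 were lower in TB_TNF_KO, with a median of -0.17, and none passed the test. Over the 21 alternative settings 6 to 8 were lower. The plot of differences by probe shows Srsf5 as the lowest of the probes that represent members. Srsf5, an exon-binding SR protein, read 0.28, 0.36 and 0.53 in B_TNF_KO and -0.16, -0.18 and 0.15 in TB_TNF_KO. All TB_TNF_KO arrays were below all B_TNF_KO arrays, and arrays 1 and 2 were on the other side of the reference. The difference was -0.39 (SE 0.11, adjusted p = 0.17). With the 6 arrays counted separately its adjusted p was 0.048, and with the replicate number as a block 0.013.

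Srsf9, an SR protein with a short arginine and serine domain, had the highest difference of the group. It read -0.31, -0.07 and -0.17 in B_TNF_KO and -0.10, -0.07 and -0.17 in TB_TNF_KO. The TB_TNF_KO values lay within the B_TNF_KO range, with a difference of 0.06 (SE 0.08, adjusted p = 0.78).

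Srsf3, the smallest SR protein and a link between splicing and mRNA export, was read by 3 probes that did not go one way. Its per-array values, and those of Hnrnpd below, were chosen after they were seen. The brightest read -0.12, -0.26 and -0.28 in B_TNF_KO and -0.42, -0.46 and -0.36 in TB_TNF_KO. Here the groups did not overlap, and the difference was -0.18 (SE 0.06, adjusted p = 0.24). A dim probe differed by -0.22, again with no overlap. The arginine and serine rich probe printed above differed by 0.14, with overlapping groups at -0.02, -0.07 and 0.02 in B_TNF_KO and 0.08, -0.02 and 0.21 in TB_TNF_KO.

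Of the other SR proteins, Srsf2 differed by -0.17 and Srsf10, which acts as a splicing repressor when dephosphorylated, by -0.13 (adjusted p = 0.24), in both cases with all TB_TNF_KO arrays below. Srsf4 and Srsf6 differed by -0.16 and -0.21, with overlapping arrays. Srsf7, which also shuttles to the cytoplasm, differed by -0.03 at its brighter probe and by -0.28 at its dimmer one. Only the dimmer of these had no overlap between the groups.

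Tra2b, an SR-like protein that binds purine-rich exon enhancers, read 0.06, -0.07 and 0.10 in B_TNF_KO and 0.0044, -0.12 and -0.07 in TB_TNF_KO. These ranges overlapped, the difference was -0.09 (SE 0.06, adjusted p = 0.53), and the second probe gave 0.01. The kinase genes Clk3 and Clk4 were clearly above the reference and overlapped between the groups. Clk3 read 0.54, 0.80 and 0.89 in B_TNF_KO and 0.60, 0.56 and 0.58 in TB_TNF_KO, with a difference of -0.16 (SE 0.10, adjusted p = 0.51). Clk4 read 0.73, 0.59 and 0.90 in B_TNF_KO and 0.61, 0.51 and 0.77 in TB_TNF_KO, with a difference of -0.08 (SE 0.11, adjusted p = 0.79).

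The SR-related group held the member with the highest difference after Luc7l. Rbm5, an RNA-binding protein that acts on the splicing of cell death genes, read 1.02, 1.09 and 1.20 in B_TNF_KO and 1.29, 1.20 and 1.31 in TB_TNF_KO. The TB_TNF_KO arrays were on the high side, and the groups overlapped only at 1.20. The difference was 0.17 (SE 0.06, adjusted p = 0.26). It was 0.0068 in the sample channel and -0.17 in the reference channel, so the difference of the ratio was mostly that of the reference channel.

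Srrm1, a coactivator that bridges SR proteins and snRNPs, was the only one of these 4 genes that was lower. It read 0.30, 0.20 and 0.34 in B_TNF_KO and 0.13, 0.20 and 0.31 in TB_TNF_KO, a difference of -0.04 within overlapping ranges (adjusted p = 0.81). Son, a scaffold of nuclear speckles, differed by 0.05. Srrm2, another speckle scaffold, differed by 0.09 and 0.07 at its probes. The median of the 4 was 0.07, and it ranged from -0.05 to 0.14 over the 21 alternative settings, so it kept no one sign.

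Among the hnRNP genes, 5 of 7 were lower in TB_TNF_KO, with a median of -0.19. Hnrnpd encodes AUF1, which binds AU-rich elements and affects the decay of cytokine mRNAs, that of Tnf among them. The brighter probe read 0.26, 0.18 and 0.22 in B_TNF_KO and -0.14, -0.14 and -0.02 in TB_TNF_KO. Every TB_TNF_KO array was below both the B_TNF_KO arrays and the reference. The difference was -0.31 (SE 0.05), and its adjusted p of 0.070 was the lowest of the 31. It was 0.014 with the 6 arrays counted separately and 0.019 with the replicate block.

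The dimmer Hnrnpd probe read 0.13, 0.08 and 0.16 in B_TNF_KO and -0.51, -0.58 and -0.39 in TB_TNF_KO, a difference of -0.59. It separated the groups more widely than the brighter probe did. In the sample channel the 2 probes differed by -0.38 and -0.78, and in the reference channel by -0.08 and -0.19.

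Ptbp1, the polypyrimidine tract binding protein that silences exons, read 0.15, 0.09 and 0.32 in B_TNF_KO and -0.26, -0.24 and -0.09 in TB_TNF_KO. The groups lay on opposite sides of the reference. The difference was -0.36 (SE 0.09, adjusted p = 0.12), and it was -0.36 in the sample channel and 0.0013 in the reference channel. Its adjusted p was 0.031 with the 6 arrays counted separately and 0.013 with the replicate block.

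Hnrnpk, a poly(C)-binding protein of transcription and splicing, was the highest of the group in difference. It read 0.34, 0.51 and 0.68 in B_TNF_KO and 0.59, 0.51 and 0.54 in TB_TNF_KO, so the TB_TNF_KO arrays lay inside the B_TNF_KO range (0.04, SE 0.10, adjusted p = 0.90). Hnrnpa1, a splicing silencer, differed by -0.18 with all TB_TNF_KO arrays below, and its 2 probes overlap by 26 bases. Hnrnpc, which coats nascent transcripts, differed by -0.23 and -0.32 at its probes. Hnrnpl, a regulator of the Ptprc exons, differed by -0.19 and Hnrnpu, a nuclear matrix protein, by 0.01, and the arrays of each of these 3 overlapped.

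Members that recognise splice sites or form the spliceosome core lay close to 0, at a median of -0.07 with 4 of 5 lower. U2af2, the large subunit of the factor that binds the polypyrimidine tract, read 0.27, 0.48 and 0.49 in B_TNF_KO and 0.26, 0.08 and 0.24 in TB_TNF_KO. The groups were separated by the narrow gap between 0.26 and 0.27, and the difference was -0.20 (SE 0.08, adjusted p = 0.28). Its partner U2af1, which reads the end of the intron, differed by -0.07 with no overlap, and by 0.0049 at the second probe.

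Snrnp70, a defining protein of the U1 snRNP, read 0.27, 0.37 and 0.44 in B_TNF_KO and 0.35, 0.31 and 0.48 in TB_TNF_KO. The groups overlapped, with a difference of 0.04 (SE 0.07, adjusted p = 0.82). Sf3b1, which holds the branch point, and Prpf8, at the catalytic centre, differed by -0.09 and -0.0085, with overlap.

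Ddx5, an RNA helicase, read 0.76, 0.75 and 0.91 in B_TNF_KO and 0.81, 0.76 and 1.05 in TB_TNF_KO. The difference was 0.11 (SE 0.09, adjusted p = 0.63) between overlapping groups. Mbnl1, a muscleblind regulator of developmental splicing, read 1.46, 1.43 and 1.56 in B_TNF_KO and 1.49, 1.41 and 1.66 in TB_TNF_KO. Here too the groups overlapped, and the difference was 0.07 (SE 0.08, adjusted p = 0.74). With median centring in place of loess it was -0.04.

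Measured against the cell line reference, 24 of the 31 members had a mean over samples above 0. All 6 arrays were above 0 in 20 of the 31 and below 0 in 6. The median mean ratio of the 31 was 0.33, beside -0.0066 over all genes. The share of all genes above 0 is not given here. Levels above the reference were not shared by the 96 other splicing genes described below. Of these, 42 had a mean above 0, and all 6 arrays were above 0 in 30 and below 0 in 43. Mbnl1 had the highest mean ratio, 1.51, followed by Rbm5 at 1.17, and Hnrnpa1 the lowest, -1.61. These ratios compare each gene in nodes with the same gene in the reference, and give no order of expression between genes.

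The reference RNA was the same on every array, so its channel shows the differences that do not come from the nodes. There, limma gave 4 of the 31 members an unadjusted p under 0.05, beside 21.3% of all genes, and 0 members and 0% of all genes passed after adjustment. The 4 are Srsf6 (-0.15), Rbm5 (-0.17), Srrm1 (-0.13) and Hnrnpu (-0.20). The median over the 31 was -0.0039 in the reference channel and -0.12 in the sample channel, so the lower ratios came mostly with a lower sample signal.

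**Figure D3:**
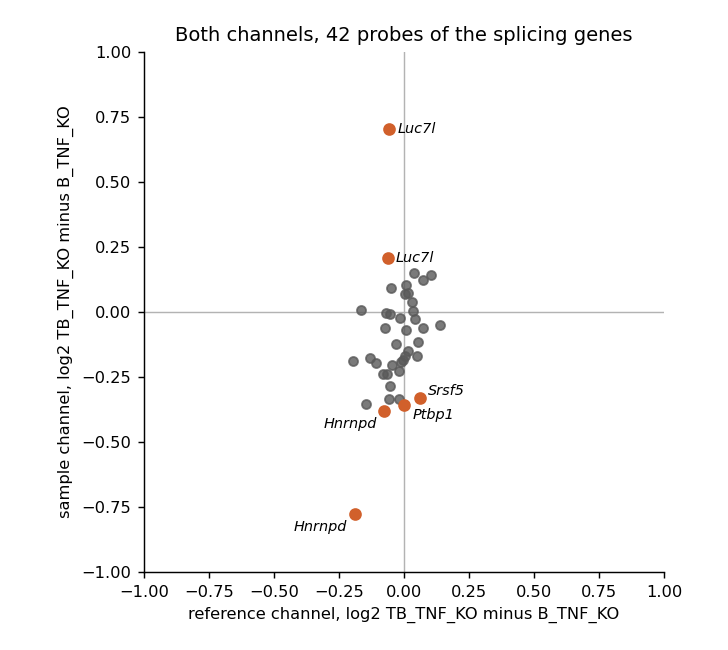
Log2 difference of TB_TNF_KO minus B_TNF_KO in the reference channel (x axis) and in the sample channel (y axis) for the 42 probes of the members, each a point, with the probes of Luc7l, Hnrnpd, Srsf5 and Ptbp1 in colour. The Luc7l probes lie at 0.71 and 0.21 in the sample channel, and both Hnrnpd probes lie below 0 there, at -0.38 and -0.78.

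The plot of both channels shows that the probes spread more from top to bottom than from side to side. Over all 42 probes, 27 were lower in TB_TNF_KO, beside 54.9% of all kept probes. In 12 all TB_TNF_KO arrays lay below, beside 17% of all kept probes. All lay above only in the 2 probes of Luc7l, which was put in the set for its higher value. Of all kept probes, 10.6% lay above. Of the 9 members with several probes, 6 agreed in sign over their probes, and Srsf3, Tra2b and U2af1 did not. The other 23 members were read by 1 probe each.

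The replicate 3 arrays read higher for many members in both groups. Array 3 was above the mean of arrays 1 and 2 by a median of 0.11 in B_TNF_KO and 0.12 in TB_TNF_KO, while the median over all genes was 0.01 in each. In both groups 20 of the 32 members were higher, beside 12427 of the 37048 genes tested. Luc7l went the other way, at -0.17 and -0.20. These arrays also had the low pancreas markers, whose part in this was not tested.

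The differences moved with the GC content of the probe, over all probes as well as members. Of the 7438 kept probes with at most 35% GC, 70.6% were lower in TB_TNF_KO, with a median of -0.06, and of the 12 member probes there 11 were lower, with a median of -0.19. Of the 20441 probes between 35% and 45% GC, 57.2% were lower, and 13 of 22 member probes. Above that the member counts were 3 of 6 up to 55% GC and 0 of 2 beyond it. With a GC correction the Luc7l difference was 0.76, that of Hnrnpd -0.29, that of Ptbp1 -0.32 and that of Srsf5 -0.37, and the median of the 31 members was -0.08.

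**Figure D4:**
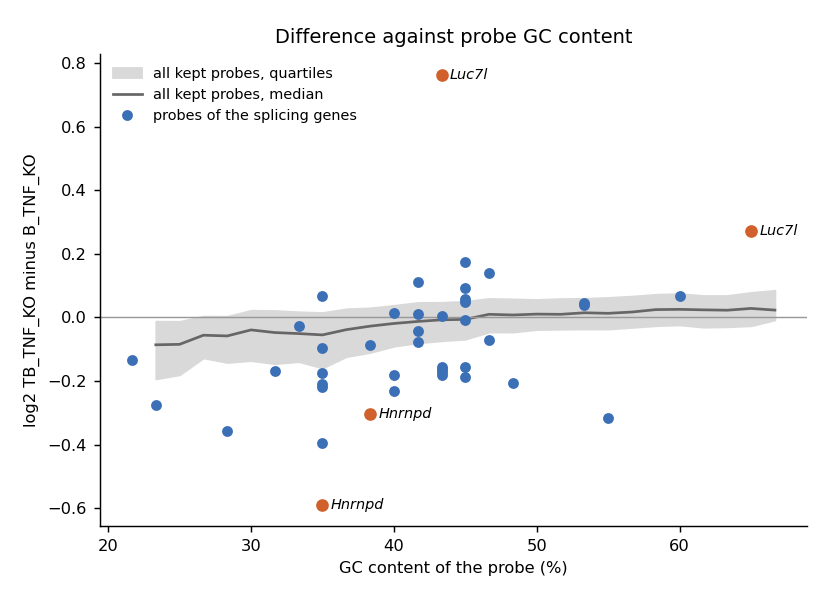
Log2 difference of TB_TNF_KO minus B_TNF_KO (y axis) against the GC content of the probe in percent (x axis) for the 42 member probes, each a point. The line and band are the median and quartiles of all kept probes at each GC content. The line rises from below 0 at low GC to slightly above 0 at high GC, and the brighter Luc7l probe lies far above it and both Hnrnpd probes below it.

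The plot against GC content shows member probes within the band and on both sides of it, more of them below than above. Member genes were also bright, with a median log2 sample signal of 10.6 against 7.76 over all genes. Of all genes with a signal between 10 and 12, 62.1% were lower in TB_TNF_KO and 24.2% had an unadjusted p under 0.05 as lower. The part of brightness in the count of lower members was not tested.

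Other genes of the splicing machinery were taken from a list of 132, of which 96 were matched, to see whether any shared the higher value. None of the 96 passed the adjusted test in limma in either direction with 3 samples against 2. The replicate number as a block changed this, with 29 lower, against 6.49% of all genes, and 1 higher, against 1.84%. With the 6 arrays counted separately and no block, 22 were lower, against 4.68%, and 1 higher, against 1.45%. At an unadjusted p under 0.05, 2 were higher and 35 lower, against 5.03% and 11.3% of all genes. By sign, 72 of 96 were lower (75%), and the median was -0.11. With median centring 83 of 96 were lower, with a median of -0.20, beside -0.01 over all genes. The arrays did not overlap in 42 that were lower, against 17.2% of all genes, and 5 that were higher, against 10.7%. These 96 genes were brighter than all genes, with a median log2 sample signal of 10.4 against 7.76. Their probes had less GC, with a median of 39.2% against 43.3%. Of all genes with a signal between 10 and 12, 24.2% had an unadjusted p under 0.05 as lower in limma. Between 12 and 16 it was 15.2%. Of the 96 genes, 40 lay in the first of these ranges and 16 in the second, with medians of -0.13 and -0.09. Between 8 and 10 there were 28, with a median of -0.10. The part of brightness and GC content in the counts of this list was not tested.

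Within this list, 7 of 8 U1, U2 and Sm proteins and 19 of 22 proteins of the tri-snRNP and the Prp19 complex were lower, with medians of -0.18 and -0.17. Of the RNA helicases 7 of 8 were lower, of the other hnRNPs 13 of 16, and of the SF3A and SF3B complex 5 of 8. The SR-related proteins and their kinases were even, at 4 of 8, and of the other RNA-binding regulators 17 of 26 were lower.

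**Figure D5:**
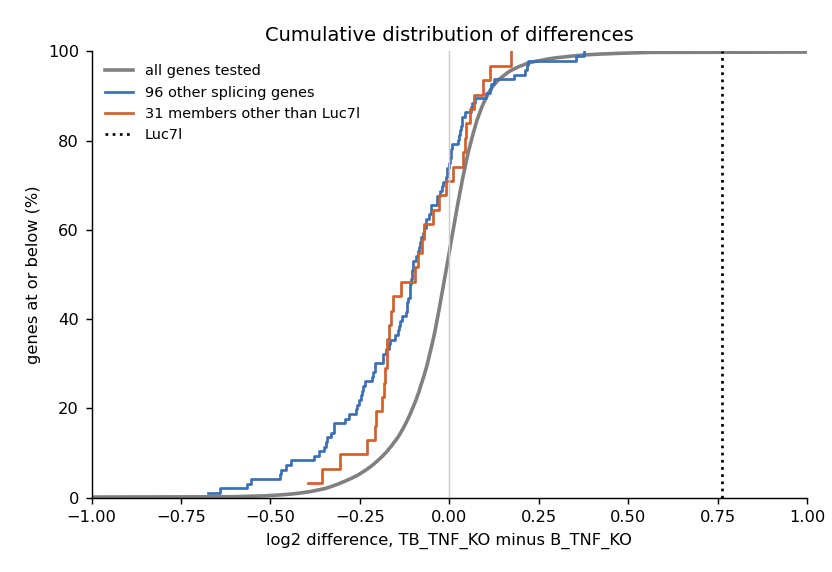
Percent of genes (y axis) with a log2 difference of TB_TNF_KO minus B_TNF_KO at or below the value on the x axis, for all genes tested, the 96 other splicing genes and the 31 members other than Luc7l. Both splicing curves lie to the left of the curve of all genes over most of their range, and the dotted line marks Luc7l at 0.76. Each gene is drawn by its brightest probe.

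The curves of differences take the brightest probe of each gene, and on that basis Luc7l had the highest value of the splicing genes. Probe choice matters here. The dimmer probe of Rbm10, a relative of Rbm5 that regulates exon inclusion, came close to the brighter Luc7l probe, and it is named because of its value. It read 0.38, 0.40 and 0.15 in B_TNF_KO and 1.08, 1.09 and 0.90 in TB_TNF_KO, with no overlap and a difference of 0.68, while the brighter Rbm10 probe differed by 0.06 with overlap. The dimmer Luc7l probe, at 0.27, was below the probes of Pnn and Sf3b4.

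By brightest probe, Pnn, a speckle protein that also sits at desmosomes, was the highest of the other splicing genes, at -0.13, -0.02 and 0.10 in B_TNF_KO and 0.38, 0.23 and 0.40 in TB_TNF_KO. Its arrays did not overlap, and the difference was 0.38 (SE 0.08, adjusted p = 0.089). With the 6 arrays counted separately its adjusted p was 0.034, and with the replicate block 0.029. Sf3b4, of the branch point complex, followed by unadjusted p at 0.35 (SE 0.09, adjusted p = 0.13), then Celf4 at 0.13 (adjusted p = 0.33) and Taf15 at 0.21 (adjusted p = 0.36, second probe -0.10).

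The 4 lowest p-values on the other side came close to the threshold. Hnrnpdl, the closest paralog of Hnrnpd, read -0.26, -0.52 and -0.38 in B_TNF_KO and -1.09, -1.18 and -0.99 in TB_TNF_KO, with no overlap. The difference was -0.67 (SE 0.09, adjusted p = 0.053), in the same direction as both Hnrnpd probes. Hnrnpf, which binds G-rich runs, differed by -0.64 (SE 0.09, adjusted p = 0.053), but its second probe by -0.08. Snrpa1 and Snrpb2, proteins of the U2 snRNP, differed by -0.36 (SE 0.05, adjusted p = 0.055) and -0.44 (SE 0.07, adjusted p = 0.058). All 4 were past the threshold with the 6 arrays counted separately and with the replicate block. The probes that represent these 4 have 35% GC. Of all kept probes with at most 35% GC, 70.6% were lower in TB_TNF_KO. Over the 21 alternatives, GC correction among them, all 4 differences stayed below 0. The part of GC content in their values was not tested.

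With the 6 arrays counted separately, 3 members were lower at an adjusted p under 0.05 and 0 higher, against 4.68% and 1.45% of all genes. They were Hnrnpd, Ptbp1 and Srsf5, and the same 3 passed with the replicate number as a block, against 6.49% of all genes as lower and 1.84% as higher. If TB_TNF_KO arrays 1 and 2 held 1 RNA, these fits count 1 sample as 2, and their p-values are too small.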

How the data were processed

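The authors used Agilent Feature Extraction A.7.5.1, per the file headers. Their deposited scanner output gives, per spot and dye, a signal intensity and a background intensity, besides a log10 ratio. A deposited table of the series gives log10 values, which tracked each array's processed Cy3 signal (r 0.993 to 0.996 across probes, column medians 2.98 to 2.99). Its scaling is not given in the sources used here, and it served as an alternative.

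Mean intensities were corrected with normexp (offset 50) and normalised by loess within arrays in limma 3.58.1 (R 4.3.3). Control spots (weight 0 in loess) and 228 outlier spots were removed. Probes well above background in the sample channel on at least 3 arrays were kept (40791 of 41006). The brightest probe represents a gene. Of 41034 spots, 15303 received a symbol through a RefSeq table of GRCm38.p6, used for names only, and 12235 of the 37048 genes tested had one. The channels were taken apart after Aquantile normalisation. An interval around a difference is that of the fit at 95%.

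Groups were compared with lmFit and eBayes, 3 samples against 2, with Benjamini-Hochberg adjustment over all genes and a threshold of 0.05. No label beyond the pooling says that samples were separate, so p-values measure the spread between these pools. By the headers, every day of feature extraction covered 1 group alone, and the effects of day and group cannot be told apart. Same-numbered arrays deviated together from their group means (r 0.14, 0.51 and 0.61 across genes), which by the rule used here pairs the samples. Arrays of unlike number gave r from -0.56 to 0.41, the highest for B_TNF_KO array 2 with TB_TNF_KO array 1. No label states a pairing. The fit of 3 samples against 2 leaves the pairing out, and the fit with the replicate block takes it in. On data simulated for this comparison with 36913 genes, limma recovered 96 of 100 genes given a log2 change of 1 and 57 of 100 given 0.5, and made 5 false calls. The simulated noise was drawn independently for each gene and sample, without the deviations that the real arrays shared across genes. The counts therefore do not give the share of real changes of these sizes that the fit would find.

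The members and lists were chosen with earlier results of these data known. Per-array values were given for the LUC7-like genes, for any member past the threshold, and for the highest and lowest difference of each role group. Of the other splicing genes, those with the 4 smallest unadjusted p in each direction were named. Alternatives covered background, normalisation, channels, probe filters, GC, the spread model, array weights and left-out arrays. Lymph node stroma markers (10 of 11) had medians of 3.30 to 4.13 and adipocyte markers (7 of 8) of 4.28 to 4.87. Plots were made in Python 3.11.15 with matplotlib 3.10.9.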

Additional observations from a re-analysis of the deposited data

How the results depend on the processing

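The Luc7l difference was above 0 in all 21 alternatives, from 0.52 with the mean of its probes and 0.58 without background subtraction to 0.86 without TB_TNF_KO replicate 3. Luc7l was chosen for this difference in the same arrays, so its range describes the settings and is no support for the difference. Members called higher numbered 0 in every alternative. Members called lower numbered 3 with the 6 arrays counted separately, 3 with the replicate block as well, 1 with trend and robust in eBayes (Hnrnpd) and 4 with array weights (the 3 of the block and Srsf6), and 0 in the 17 others. Of all genes, 4.68%, 6.49%, 0.983% and 7.51% were called lower in these 4 fits and 1.45%, 1.84%, 0.335% and 2.29% higher. Other splicing genes called higher numbered 1 with separate arrays, 1 with the replicate block, 1 with trend and robust and 2 with array weights. Those called lower numbered 22, 29, 9 and 31 in these fits, 5 with the sample channel alone (0.839% of all genes) and 1 with saturated probes left out (0.396%). No called value reversed.

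The median of the 31 members stayed below 0, from -0.17 with median centring to -0.05 without B_TNF_KO replicate 3, and was -0.16 without TB_TNF_KO replicate 3. The number of them that were lower ran from 18 to 29. The median of the other splicing genes was -0.20 with median centring. Leaving out 1 array at a time gave -0.15 to -0.09 for it and 0 calls in both lists. An alternative chosen after seeing the data, without TB_TNF_KO arrays 1 and 2, gave -0.06 for the members, -0.07 for the other splicing genes and 0.66 for Luc7l, with 1 TB_TNF_KO array assumed to vary like B_TNF_KO. The number of arrays limits the precision, and member probes were all well above background. The causes of these differences between settings were not tested.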
